A study of Homo sapiens with 6 samples.

Results

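The ATF4 stress response effectors described here are 10 genes, with amino acid transporters left out: the transcription factor ATF4 itself and 9 of its targets. The targets code for further transcription factors, signalling proteins, enzymes, a secreted protein and a surface receptor. They were chosen by gene symbol, as a list of known ATF4 targets, with earlier results of these data known. All 10 were found among the 54261 rows of the count table. The 6 sequenced samples were all of the human lung cancer line PC9/GR. A control small interfering RNA (siRNA; si-NC, the control group) was given to 3 of them, and the other 3 were given an siRNA against the long non-coding RNA MYLK-AS1 (si-MYLK-AS1, the knockdown group). The study's title places the work in glutamine metabolism and in resistance to EGFR inhibitors. The labels give no siRNA sequence, dose or time and name a single knockdown reagent in 1 cell line, so effects of the siRNA itself and of lost MYLK-AS1 cannot be told apart.

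ATF4 is the effector of the integrated stress response. Stress-sensing kinases phosphorylate the translation factor eIF2, which slows protein synthesis but favours translation of ATF4 mRNA, and ATF4 then pairs with C/EBP proteins to switch on genes for amino acid supply, redox balance and cell fate. Much of this control acts on translation, so ATF4 mRNA does not measure ATF4 protein, and its targets are the usual RNA readout. In lung cancer cells the pathway is known for the supply of asparagine and other amino acids when glutamine runs short.

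Promoter sequence helps to place the members, because the C/EBP-ATF element through which ATF4 acts has the core TGATGNAA. Both strands of the windows from 250 bases before to 50 bases after each annotated start were searched (RefSeq, GRCh38.p14), and all 10 members had a window. The core was found in 2 members, ASNS and CHAC1, and in 4.46% of the 27305 genes with a window. Genes with more than 1 window counted once. The first pair below shows these promoters, 5′ to 3′ on the gene strand, with the core in capitals. In ASNS the match TGATGAAA begins 68 bases before the start. In CHAC1 the match TGATGCAA lies on the opposite strand, its far end 209 bases before the start, so it reads TTGCATCA here. The second pair shows STC2, the member with the largest rise, and CEBPB, the one with the largest fall, with the CCAAT box in capitals. It reads ATTGG in STC2, where it lies on the opposite strand. That short word stood in 6 members and in 39.7% of genes. Of the 4 promoters printed only that of CHAC1 held both the core and this word, and there they did not overlap. These matches are letters in a window, not shown binding sites, and elements farther from the start were not searched.
ASNS, chr7:97872359-97872658, minus strand: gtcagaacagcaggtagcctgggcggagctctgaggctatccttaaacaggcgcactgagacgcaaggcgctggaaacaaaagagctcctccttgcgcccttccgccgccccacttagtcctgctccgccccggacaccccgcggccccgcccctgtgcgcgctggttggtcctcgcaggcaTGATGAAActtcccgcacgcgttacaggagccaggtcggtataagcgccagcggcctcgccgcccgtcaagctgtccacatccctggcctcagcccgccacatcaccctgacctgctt
CHAC1, chr15:40953221-40953520, plus strand: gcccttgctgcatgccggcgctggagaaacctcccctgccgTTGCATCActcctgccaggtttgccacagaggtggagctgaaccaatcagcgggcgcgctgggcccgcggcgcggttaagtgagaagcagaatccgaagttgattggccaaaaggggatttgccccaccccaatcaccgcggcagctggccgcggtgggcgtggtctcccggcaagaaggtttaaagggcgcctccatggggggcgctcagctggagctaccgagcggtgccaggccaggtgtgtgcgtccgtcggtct
STC2, chr5:173328365-173328664, minus strand: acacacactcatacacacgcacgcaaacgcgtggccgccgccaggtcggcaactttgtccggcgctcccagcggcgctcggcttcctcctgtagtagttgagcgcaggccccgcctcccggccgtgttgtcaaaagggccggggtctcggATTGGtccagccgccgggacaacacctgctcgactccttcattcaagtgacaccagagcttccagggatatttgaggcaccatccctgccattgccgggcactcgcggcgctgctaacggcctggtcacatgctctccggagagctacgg
CEBPB, chr20:50190580-50190879, plus strand: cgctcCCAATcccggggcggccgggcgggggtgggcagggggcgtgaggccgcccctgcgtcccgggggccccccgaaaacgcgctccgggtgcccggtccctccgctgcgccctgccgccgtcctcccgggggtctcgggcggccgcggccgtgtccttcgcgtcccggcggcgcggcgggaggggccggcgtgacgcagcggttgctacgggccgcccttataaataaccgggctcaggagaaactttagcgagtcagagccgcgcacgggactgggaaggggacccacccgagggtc

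Library totals ran from 7551303 to 11055408 reads. MYLK-AS1 had 20, 16 and 19 reads in the control libraries and 0, 5 and 4 in the knockdown libraries, so the targeted RNA was lower in all 3. Keratin genes of the epithelial list were abundant, with KRT8 at 4160 CPM (read counts scaled to library size with TMM factors) in the control, but lung lineage markers were near 0. NKX2-1 was at 0.293 CPM and SFTPB was at 0, and the epithelial gene EPCAM stood at 1.50 CPM. How reads were assigned to genes is not given in the sources used here, and whether counting lost reads of EPCAM was not tested. Of the leukocyte list, PTPRC and CD3E were at 0 in all 6 libraries, while CD68, a lysosomal protein that cells other than leukocytes also make, averaged 193 CPM over the control libraries and 285 CPM over the knockdown libraries. Of the fibroblast list, COL1A1 was at 23.7 and 26.1 CPM in the control and the knockdown, COL1A2 was at 0 in both, DCN was at 0.235 and 0.403 CPM and LUM at 0.482 and 3.45 CPM. The sum of the 4 ran from 21.6 to 28.1 CPM in the control libraries and from 27.6 to 34.7 CPM in the knockdown libraries. Its part in the results was not tested. The summed level of the 9 epithelial markers was 11846 to 13869 CPM in the control libraries and 7622 to 8227 CPM in the knockdown libraries, and its part in the results below was not tested. Whether the repeats were separate cultures is not stated, so p-values cover only the spread between these 6 libraries, which may be technical.

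Of the 10 members, 9 had enough reads to be tested. Of these, 6 rose (ATF4, DDIT3, TRIB3, STC2, SESN2 and ASNS) and 3 fell (CEBPB, DDIT4 and VLDLR) at a threshold of 0.05 on the adjusted p (edgeR, quasi-likelihood). Across the 15391 genes tested 42.0% passed, 21.3% upward and 20.7% downward. The median log2 fold change of the 9 was 0.51, against -0.00050 over all tested genes. The members therefore did not move as a block: log2 fold changes ran from -1.36 in CEBPB to 1.57 in STC2. Control and knockdown CPM were without overlap in 9 of the 10 members, 6 of them higher and 3 lower in the knockdown. The 3 lower include CHAC1, which had too few reads to be tested and so lies outside the shares that follow. Of the tested genes 52.2% were without overlap, 26.1% with the knockdown higher and 26.1% with it lower. Since whole-culture RNA was sequenced, a change in the share of cells that express a gene and a change in RNA per cell cannot be told apart.

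**Figure D1:**
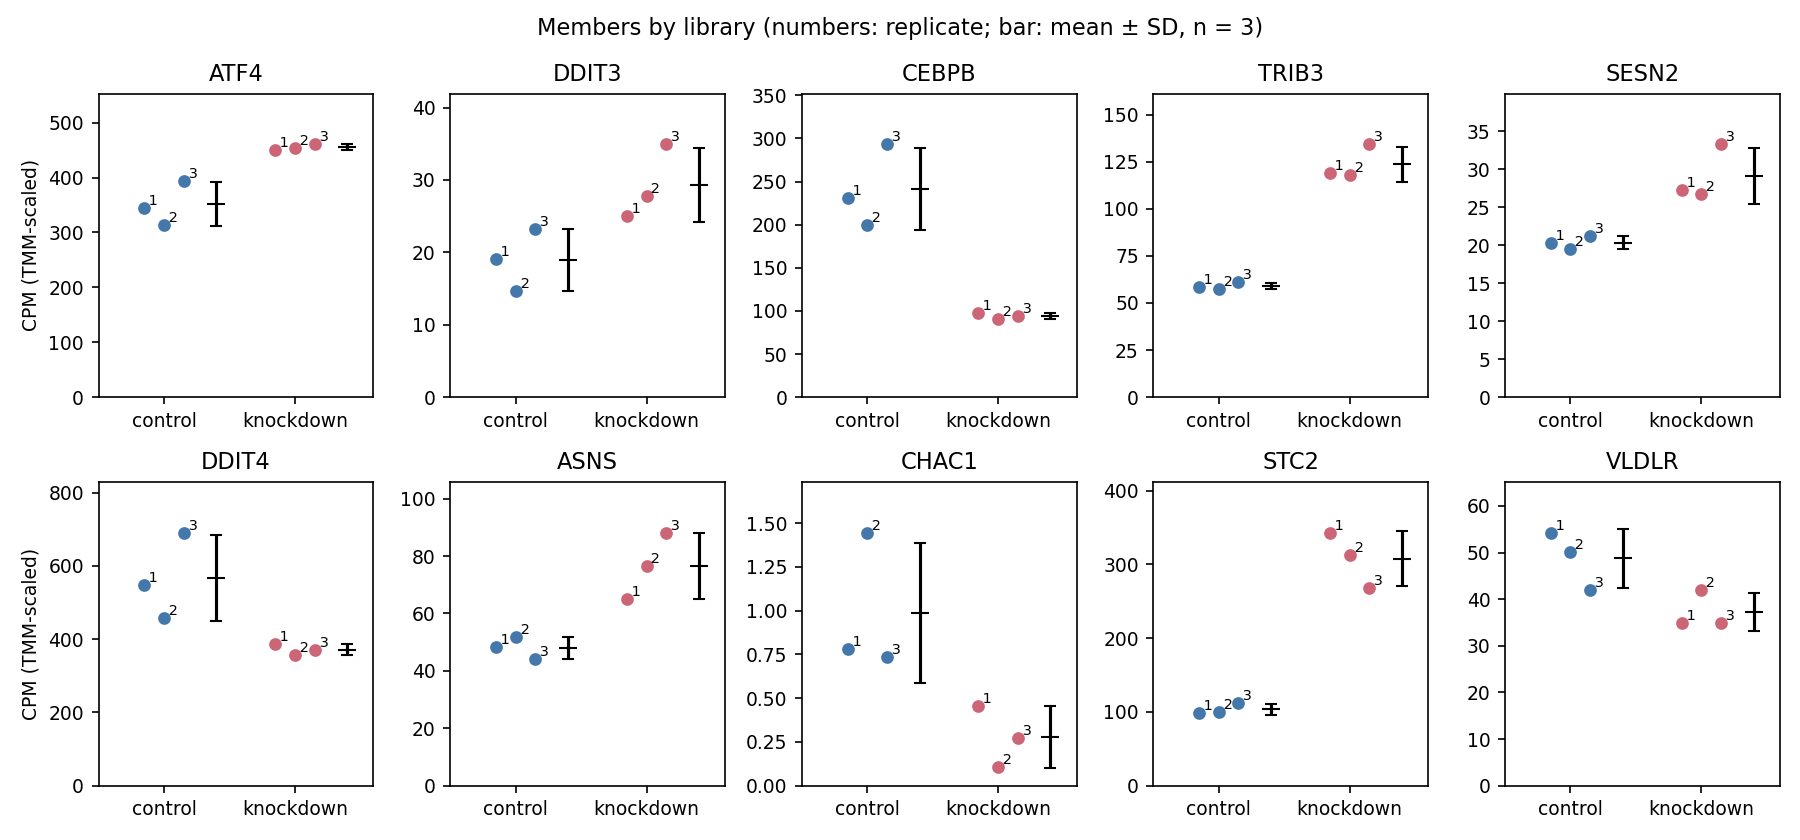
Level of each member in CPM (TMM-scaled, linear axes from 0) in the 3 control (blue) and 3 knockdown (red) libraries, numbered by replicate, with mean ± SD. STC2 and TRIB3 lie well above the control in every knockdown library, CEBPB well below it, and only the VLDLR values overlap.

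Among the transcription factors, ATF4 rose modestly. It stood at 345, 314 and 394 CPM in control replicates 1 to 3 and at 450, 454 and 461 CPM in knockdown replicates 1 to 3. The knockdown values lay close together and above every control value. This 1.30-fold rise (log2 fold change 0.37, SE 0.09, 95% interval 0.17 to 0.57) had an adjusted p of 0.00413 by edgeR. ATF4 (ENSG00000128272.14) lies on chromosome 22 from 39519695 to 39522685, plus strand (GRCh38), and has processed pseudogenes with which reads may be shared. ATF4P3 is 97.5% identical to it over 1056 bases and ATF4P4 96.2% over 1125 bases. Together the 4 copies ATF4P1 to ATF4P4 held between 4.03% and 6.96% of the reads of ATF4 and its copies in each library. With their reads added, the difference of mean log2 CPM was 0.35, and without them 0.38. For ATF4P3 itself the fitted log2 difference was -0.31 (SE 0.20, adjusted p = 0.238), and for ATF4P4 it was 0.08 (adjusted p = 0.764).

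DDIT3, which codes for CHOP, the factor that ATF4 induces under prolonged stress, was a scarce transcript. Its control values were 19.0, 14.6 and 23.2 CPM and its knockdown values 25.0, 27.8 and 34.9 CPM. The groups did not overlap, although control replicate 3 and knockdown replicate 1 were close. DDIT3 rose by 0.62 on the log2 scale (SE 0.17, adjusted p = 0.00768, edgeR). Without control replicate 2, its lowest library, this call was lost (0.46, adjusted p = 0.0555), and over all alternatives the adjusted p ran from 0.000368 to 0.0555. DDIT3 (ENSG00000175197.12) lies on chromosome 12 from 57516588 to 57521737, minus strand. Of its annotated exon bases 39.6% are shared with exons of MARS, MBD6 and AC022506.1, and no source says whether reads were counted by strand. MARS, the methionyl-tRNA synthetase gene on the other strand, had a log2 fold change near 0 (-0.04, adjusted p = 0.771).

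CEBPB codes for C/EBPβ, a partner of ATF4 at the composite element and itself a known target. It fell the most of the members. Control replicates 1 to 3 had 231, 199 and 293 CPM, and knockdown replicates 1 to 3 had 97.2, 90.8 and 94.5 CPM. The control libraries were spread widely and the knockdown libraries narrowly, with a wide gap between the groups. The fall was 2.56-fold (log2 fold change -1.36, SE 0.12, adjusted p = 1.52e-07, edgeR), and CEBPB had the 647th lowest log2 fold change of the 15391 tested genes. CEBPB (ENSG00000172216.5) lies on chromosome 20 from 50190734 to 50192689, plus strand, with 11.8% of its exon bases shared with the antisense gene CEBPB-AS1. That gene had 3 reads or fewer in each library.

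The intracellular signalling members went both ways. TRIB3, a pseudokinase that binds AKT and dampens ATF4 and CHOP activity, was at 58.4, 57.6 and 61.0 CPM in the control libraries and at 119, 118 and 134 CPM in the knockdown libraries. Every knockdown value was far above the control range. It rose by 1.06 on the log2 scale (SE 0.10, adjusted p = 2.07e-07, edgeR), or 2.09-fold. SESN2, the leucine sensor sestrin 2 that holds back mTORC1 through GATOR2, was at 20.2, 19.6 and 21.2 CPM and then at 27.3, 26.7 and 33.3 CPM. The groups were apart, with knockdown replicate 3 the highest. Its log2 fold change was 0.51 (SE 0.14, adjusted p = 0.00608).

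DDIT4, also called REDD1, restrains mTORC1 through the TSC complex as SESN2 does through GATOR2, but it moved the other way. Control replicates 1 to 3 had 549, 459 and 691 CPM and knockdown replicates 1 to 3 had 386, 356 and 371 CPM. All 3 knockdown values lay below the lowest control value, and the control libraries differed much among themselves. DDIT4 fell, with -0.61 on the log2 scale (SE 0.12, adjusted p = 0.000584, edgeR). DDIT4 (ENSG00000168209.4; chromosome 10 from 72273920 to 72276036, plus strand) shares 41.2% of its exon bases with the antisense gene DDIT4-AS1.

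Of the enzymes, ASNS makes asparagine with the amide nitrogen of glutamine and is a classical ATF4 target. It had 48.2, 51.6 and 44.2 CPM in the control and 65.2, 76.6 and 88.2 CPM in the knockdown, without overlap. The spread among the knockdown libraries was the larger. Its log2 fold change was 0.67 (SE 0.12, adjusted p = 0.000258, edgeR). ASNS (ENSG00000070669.16; chromosome 7 from 97852118 to 97872542, minus strand) shares 44.6% of its exon bases with AC079781.5, while its pseudogenes ASNSP1 to ASNSP6 had 3 reads or fewer in each library.

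CHAC1, the glutathione-degrading enzyme often used as a marker of ATF4 activity, was barely present. It had 7, 15 and 8 reads in the control libraries and 5, 1 and 2 in the knockdown libraries, too few to pass the filter. All 3 knockdown levels, 0.457, 0.105 and 0.273 CPM, were under the lowest control level of 0.732 CPM. The 8 summed knockdown reads against 30 in the control put the knockdown rate at 0.290 of the control (exact 95% Poisson bounds 0.115 and 0.648, counting error only). Fitted without the filter, over 29257 genes, CHAC1 had -1.74 on the log2 scale (SE 0.71) and did not pass (adjusted p = 0.0596, edgeR). CHAC1, whose promoter holds the ATF4 core printed above, was thus not among the members that rose, unlike ASNS. CHAC1 (ENSG00000128965.12) lies on chromosome 15 from 40952962 to 40956519, plus strand.

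STC2, stanniocalcin 2, a secreted glycoprotein induced by stress of the endoplasmic reticulum, rose the most. Its control values were 98.7, 99.9 and 112 CPM and its knockdown values 343, 312 and 269 CPM. The knockdown libraries lay far above the control range, with replicate 3 the lowest of them. The rise was 2.97-fold (log2 fold change 1.57, SE 0.10, adjusted p = 5.3e-09, edgeR), the 166th highest of the 15391 tested genes. STC2 (ENSG00000113739.10) lies on chromosome 5 from 173314713 to 173329503, minus strand.

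VLDLR codes for the very low density lipoprotein receptor, a surface receptor that ATF4 is known to raise under stress of the endoplasmic reticulum. It had 54.3, 50.2 and 41.9 CPM in the control and 34.9, 41.9 and 34.9 CPM in the knockdown. Control replicate 3 and knockdown replicate 2 touched, so the groups overlapped. VLDLR fell, with -0.39 on the log2 scale (SE 0.13, adjusted p = 0.0226, edgeR). This call was lost without control replicate 1 (adjusted p = 0.112) or 2 (0.0752) and without knockdown replicate 1 (0.0840) or 3 (0.0695), and over all alternatives the adjusted p ran from 0.00468 to 0.112.

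Scaled to exon length, DDIT4, ATF4 and CEBPB were the most abundant members in the control, at 275 ± 56.8, 140 ± 16.0 and 123 ± 24.5 CPM per kilobase (SD, n = 3). The lower values of DDIT4 and the upper ones of ATF4 did not meet, since the DDIT4 minimum was 223 and the ATF4 maximum 157, while ATF4 and CEBPB overlapped. TRIB3, STC2 and DDIT3 followed at 17.2 ± 0.524, 16.9 ± 1.25 and 14.5 ± 3.29, overlapping one another, and then ASNS at 10.8 ± 0.835, which overlapped DDIT3. SESN2 and VLDLR overlapped at 5.89 ± 0.244 and 5.23 ± 0.674, and CHAC1 came last at 0.479 ± 0.194. In the knockdown the order at the top changed. ATF4 and DDIT4 then overlapped at 181 ± 2.23 and 180 ± 7.17 CPM per kilobase, and STC2 (50.3 ± 6.11) overlapped CEBPB (48.1 ± 1.64). TRIB3 stood at 36.0 ± 2.71, apart from DDIT3 at 22.4 ± 3.92, which overlapped ASNS at 17.2 ± 2.58. SESN2 (8.43 ± 1.06), VLDLR (3.99 ± 0.434) and CHAC1 (0.135 ± 0.0855) followed without overlap. Exon lengths came from the union of GENCODE 29 exons, which may differ from those the authors counted.

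Because ATF4 mRNA itself rose, each other member was also set against ATF4 within its own library, which removes library size. The log2 ratio to ATF4 reads was higher in the knockdown by 1.19 for STC2 and by 0.68 for TRIB3, without overlap. It was lower by -1.72 for CEBPB, -0.97 for DDIT4, -0.77 for VLDLR and -2.37 for CHAC1, also without overlap. Each of these 6 ratios had a two-sided exact permutation p of 0.1, the smallest that 3 against 3 libraries can give, and 0.15 after adjustment over the 9 ratios. For ASNS (0.29), DDIT3 (0.26) and SESN2 (0.13) the ratios of the groups overlapped, with exact permutation p-values of 0.2, 0.2 and 0.4. The difference of SESN2 was under the pooled SD of its ratios (0.14), and those of ASNS and DDIT3 were above theirs (0.24 and 0.20). Leaving out 1 library lowered each of the 3 by over 1.5 times. ASNS went to 0.14 without control replicate 3 and 0.19 without knockdown replicate 3. DDIT3 went to 0.16 without control replicate 2 and 0.13 without knockdown replicate 3, and SESN2 went to 0.08 without control replicate 3 and 0.04 without knockdown replicate 3. All 9 ratios share the ATF4 counts.

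**Figure D2:**
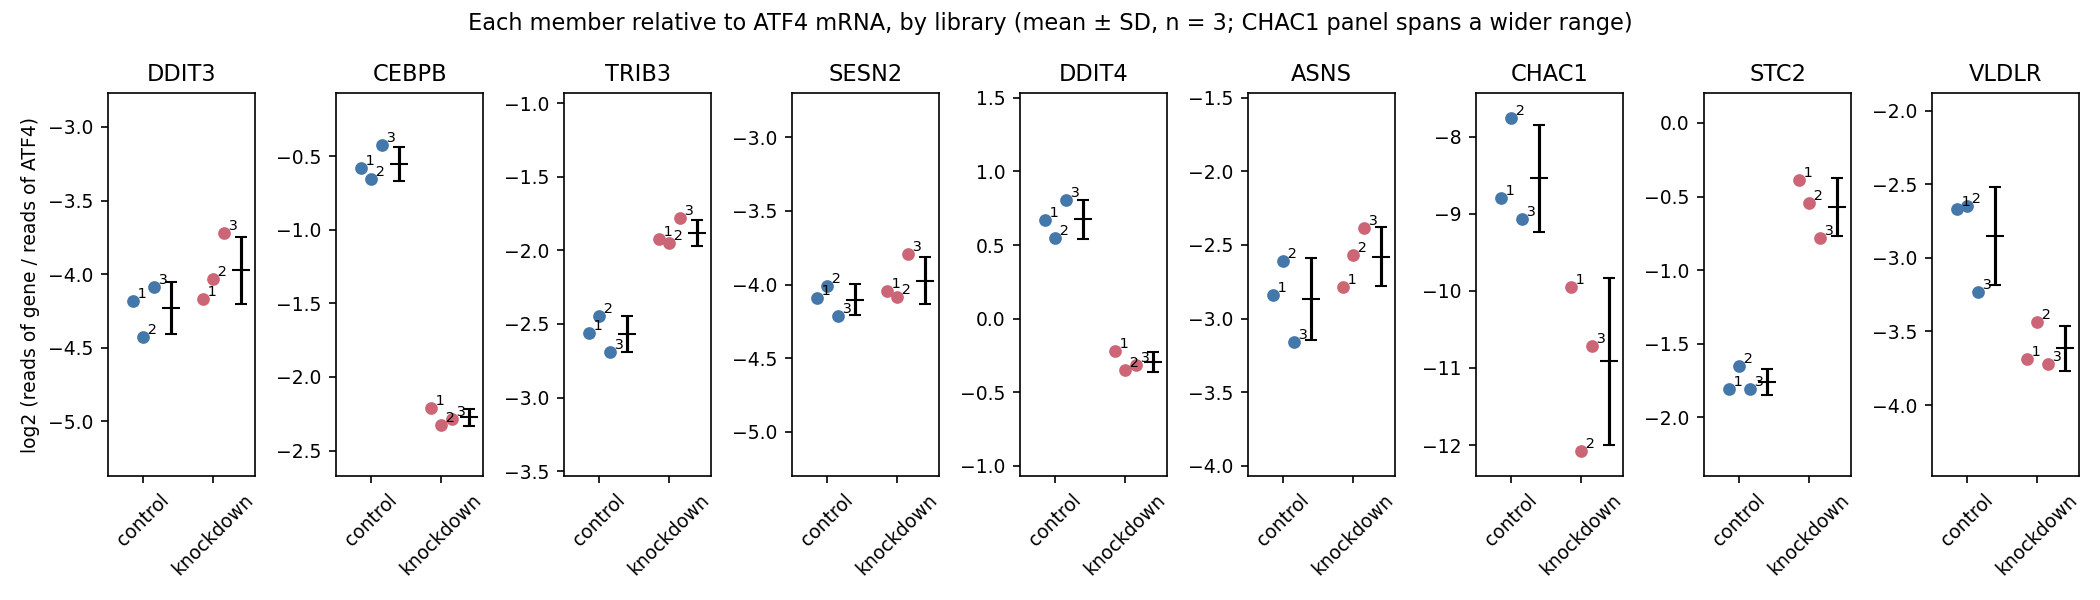
log2 ratio of each member's reads to ATF4 reads in the same library, for 3 control (blue) and 3 knockdown (red) libraries with mean ± SD. The vertical axes span the same range except for CHAC1, which rests on 1 to 15 reads a library. STC2 and TRIB3 lie higher in the knockdown, CEBPB, DDIT4, VLDLR and CHAC1 lower, and DDIT3, SESN2 and ASNS overlap.

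Libraries of a group also differed among themselves. Control replicate 3 was the highest control library for 7 of the 10 members, among them ATF4, DDIT3, DDIT4 and CEBPB, and the lowest for the other 3 (CHAC1, ASNS and VLDLR). Over all tested genes it was the highest for 39.0% and the lowest for 39.9%. Control replicate 2 was the lowest for 6 members, against 28.4% of tested genes. Knockdown replicate 3 was the highest of its group for 5 (ATF4, DDIT3, TRIB3, SESN2 and ASNS), against 38.0%. Without control replicate 3 the log2 fold changes of DDIT4 and CEBPB were -0.44 and -1.19.

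Paralogs were compared with the members, since they share protein function but not always ATF4 control. Of 11 tested, 3 rose, 3 fell and 5 did not pass the threshold, with a median log2 fold change of 0.20. These counts are near the shares over all tested genes, 21.3% up and 20.7% down. STC1, the other stanniocalcin, rose with STC2, from 54.8 ± 5.39 to 120 ± 5.83 CPM (log2 fold change 1.14, SE 0.10, adjusted p = 1.7e-07, edgeR). CEBPD fell with CEBPB (-1.32, SE 0.18), whereas CEBPA rose (0.56, SE 0.17) and CEBPG, a dimer partner of ATF4, had 0.29 (SE 0.12, adjusted p = 0.0555). DDIT4L fell as DDIT4 did (-0.75, SE 0.27, adjusted p = 0.0315). Among the sestrins, SESN1 had 0.08 (adjusted p = 0.729, edgeR) and SESN3, at 1.35 CPM in the control, fell (-2.03, SE 0.52). SESN3 had 11, 14 and 16 reads in the control libraries and 5, 2 and 2 in the knockdown libraries, so its fall rests on few reads. LRP8, a lipoprotein receptor, rose (0.57, SE 0.11), opposite to VLDLR. TRIB1 had 0.20 (adjusted p = 0.143), CHAC2 0.65 (adjusted p = 0.0965) and ATF5, another stress-translated factor, -0.22 (adjusted p = 0.581). TRIB2 had too few reads to be tested.

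**Figure D3:**
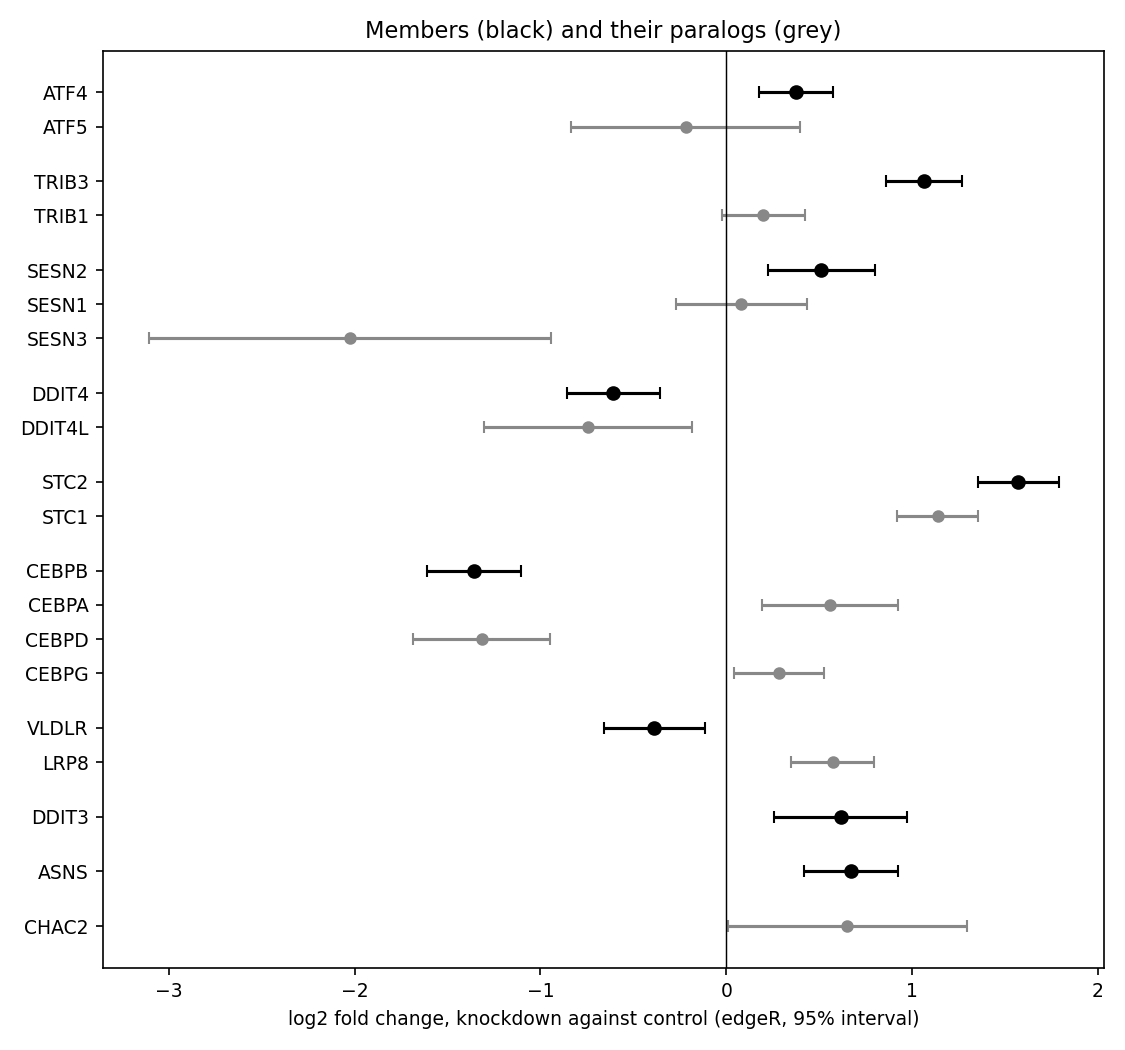
log2 fold change of knockdown against control with its 95% interval (edgeR) for the tested members (black) and their paralogs (grey), grouped by family. CHAC1 and TRIB2 were not tested. STC2 and STC1 lie to the right, CEBPB and CEBPD to the left, and LRP8 opposite to VLDLR.

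Upstream of ATF4, 9 of 19 genes of the eIF2 kinases and eIF2 machinery rose and 0 fell, with a median log2 fold change of 0.28. Over all tested genes 21.3% rose and 20.7% fell. EIF2AK3, the kinase PERK that senses stress of the endoplasmic reticulum, rose by 1.13 (SE 0.14). Of the other eIF2 kinases, EIF2AK2 rose by 0.48 (SE 0.11). EIF2AK1 (-0.04, adjusted p = 0.779) and EIF2AK4 (-0.22, adjusted p = 0.471, edgeR) did not pass. PPP1R15A, the GADD34 subunit that directs the phosphatase to eIF2 and is itself an ATF4 and CHOP target, rose by 0.94 (SE 0.11). EIF2S2, the beta subunit of eIF2, rose by 0.72 (SE 0.10). Of the 15 tested ATF, CREB and C/EBP relatives, 3 rose, among them ATF3 (1.00, SE 0.17) and CEBPA, and CEBPD alone fell, with a median of 0.12. Without knockdown replicate 1, 2 of them fell. In the full fit the share of these relatives that rose was near that of all tested genes.

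The other lists of ATF4 output are read against the 21.3% of all tested genes that rose and the 20.7% that fell. Among 17 tested ATF4 and CHOP stress targets outside the 10 members, 10 rose and 2 fell, with a median of 0.71. The 10 include PPP1R15A and ATF3, already counted above. SQSTM1, the autophagy adaptor p62, rose by 1.37 (SE 0.10), HERPUD1 by 0.94 (SE 0.10) and the endoplasmic reticulum oxidase ERO1A by 0.87 (SE 0.09). The 2 that fell were BBC3 (-0.69, SE 0.16) and NUPR1 (-1.58, SE 0.42), which was at 2.15 CPM in the control. Of 9 tested amino acid transporters, 4 rose and 1 fell (median 0.71). SLC7A5 (1.31) and its partner SLC3A2 (0.90), which form the large neutral amino acid exchanger, rose, and the cationic transporter SLC7A1 fell (-0.93). Of 13 cytosolic tRNA synthetases 8 rose and 0 fell (median 0.27), led by GARS (0.69), EPRS (0.65) and TARS (0.56), and 5 rose without knockdown replicate 2. Of 12 amino acid and one-carbon enzymes, 4 rose and 2 fell (median 0.28). In serine synthesis PSAT1 rose (0.75), PHGDH fell (-0.58) and PSPH did not pass (-0.0020). GPT2 (0.52) rose and the folate enzyme MTHFD2 (-1.20) fell. Without knockdown replicate 2, 2 of the 12 enzymes rose and 2 fell.

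The ATF6 and XBP1 arms of the unfolded protein response were divided, with 5 of 16 tested genes up and 3 down and a median of 0.06. Over all tested genes 21.3% rose and 20.7% fell. EDEM1 (1.11) and DNAJB9 (1.31) rose and SYVN1 (-1.44), a ubiquitin ligase of the endoplasmic reticulum, fell. Without control replicate 3, 5 fell. Of 17 tested AKT, TSC, mTORC1 and GATOR genes, whose proteins TRIB3, DDIT4 and SESN2 act on, 1 rose and 4 fell (median 0.03). The share that fell in both lists was near that of all tested genes. SEH1L, a nucleoporin that is also a GATOR2 subunit, fell by a log2 fold change of -1.52 (SE 0.14), AKT1 by -0.36 and TSC2 by -0.41. Without knockdown replicate 1, 2 rose.

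**Figure D4:**
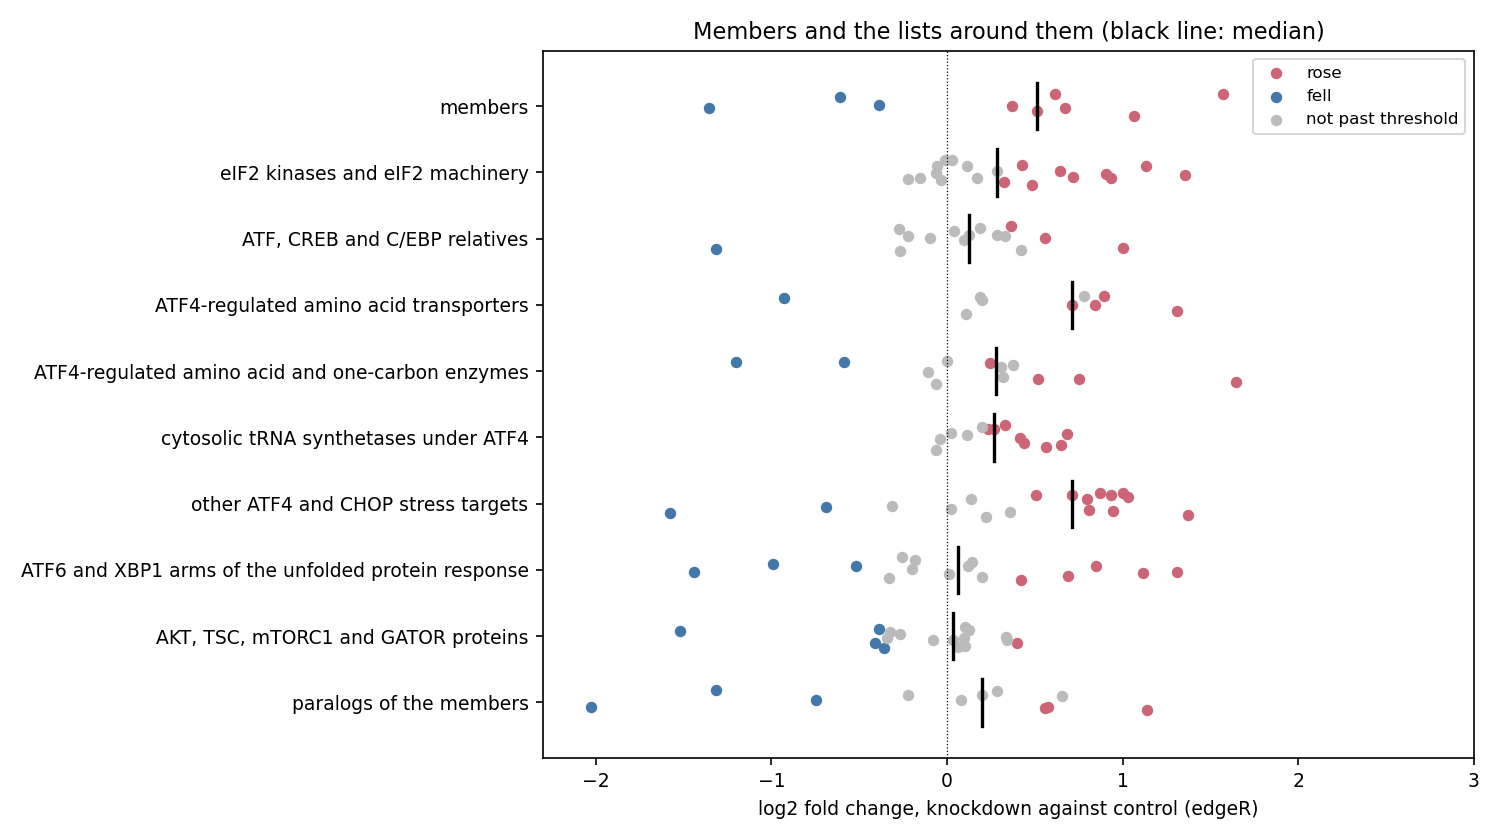
log2 fold change of knockdown against control (edgeR) for each tested gene of the members and of 9 lists around them, coloured by call at an adjusted p of 0.05, with the median as a black line. Medians lie at 0.51 for the members and at 0.71 for the transporters and the other stress targets, and at 0.06 and 0.03 for the ATF6 and XBP1 arms and the mTORC1 group.

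The genes whose pattern over the 6 libraries was most like a member's were found by the root mean square difference of centred log2 CPM, over the 9491 genes whose mean reached 10 CPM. Nearest to ATF4 were ELOF1, a transcription elongation factor (0.034), ATOX1, a copper chaperone (0.037), and LRRN2 (0.037). ELOF1 rose from 31.4 ± 2.90 to 40.0 ± 0.823 CPM (SD, n = 3). Among the nearest to CEBPB were GRB7, a signalling adaptor (0.105), and TRAPPC9 (0.107), both farther off than the 3 nearest to ATF4. GRB7 went from 44.1 ± 3.87 to 17.0 ± 0.593 CPM (SD, n = 3). Since these genes were picked for their likeness to ATF4 or CEBPB, the direction of their changes was fixed by the choice.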

How the data were processed

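RNA of the 6 samples was harvested with Trizol and made into Ion Proton libraries, per the labels' protocols. The authors deposited raw counts of reads per gene symbol, 1 column per sample, on build GRCh38 according to the submitters' processing notes. Not given in the sources used here are the aligner, the counting tool with its strand setting, and the annotation.

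Counts were tested with edgeR 4.0.16 in R 4.3.3 (filterByExpr, TMM, robust quasi-likelihood F test, two-sided), with Benjamini-Hochberg adjustment over 15391 genes and a threshold of 0.05. The SE is the log2 fold change divided by the square root of F. Totals of 7551303 to 11055408 reads put a floor of 3 reads at 0.271 to 0.397 CPM. The test was checked on simulated counts with the means and library sizes of this comparison. Changes were put into 200 genes, and all genes had 1 common dispersion. Over 15114 genes it called 11 of 66 changed by 0.5 on the log2 scale, 55 of 65 changed by 1 and 63 of 63 changed by 2. In the real data 42.0% of tested genes passed, which sets a different adjusted threshold, so these rates are not its recovery rates. Alternatives used limma 3.58.1 (voom), DESeq2 1.42.0, other scalings, filters and thresholds, a replicate block, and each library left out. Pseudogene identity came from blastn 2.17.0, positions from GENCODE 29.

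The members and lists were chosen with earlier results of these data known. Named genes are the members, MYLK-AS1, all paralogs, up to 3 genes with the lowest p of each other list, copies and antisense genes of members, and the 3 genes with the most similar profiles to ATF4 and to CEBPB. Genes outside this rule (MARS, MBD6, HSPA5, HSP90B1, PHGDH, PSPH, NUPR1, BBC3, EIF2AK1, EIF2AK2, EIF2AK4, the markers and unnamed overlaps) were named after their values were seen. A paralog and a gene of similar profile are not reported here, and the paralog is left out of its list's counts.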

Additional observations from a re-analysis of the deposited data

How the results depend on the processing

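The counts of members, 6 up and 3 down, were the same with RLE, upper quartile or no factors, without filtering, with 5 CPM required in 3 libraries, with DESeq2 and with limma-voom. At a threshold of 0.01, 6 rose and 2 fell. With each library left out in turn, 5 to 6 rose and 2 to 3 fell. Whether the replicate numbers pair the libraries was not settled. Deviations of same-numbered libraries correlated at -0.05, 0.07 and 0.05 across genes, and those of differently numbered libraries at -0.10 to 0.06. With the replicate block 6 rose and 3 fell, and the SE of each tested member was lower, for DDIT4 0.10 against 0.12. Of 135 refits of single members, 129 kept direction and call and 6 kept direction but lost the call, DDIT3 in 1 and VLDLR in 5. All 63 recomputed ratios to ATF4 kept their sign and moved by less than 1 SD, but those of ASNS (0.14 to 0.42), DDIT3 (0.13 to 0.35) and SESN2 (0.04 to 0.19) moved by over 1.5 times with a library left out.

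Of 270 recomputed list counts, 11 moved by more than 1.5 times. ATF, CREB and C/EBP relatives that fell numbered 2 without factors, 3 with the 5 CPM filter and 1 to 2 with a library left out, and 1 rose at the threshold of 0.01. Paralogs that rose numbered 5 without filtering. At 0.01, 5 tRNA synthetases and 0 AKT, TSC, mTORC1 and GATOR genes rose. With a library left out, 5 to 8 tRNA synthetases, 2 to 5 amino acid and one-carbon enzymes and 1 to 2 AKT, TSC, mTORC1 and GATOR genes rose, and 3 to 5 genes of the ATF6 and XBP1 arms fell. The causes were not tested. CHAC1 was too scarce for its level to be settled at this depth.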

Other observations

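HSP90B1 is the endoplasmic reticulum chaperone GRP94 that most cells hold in abundance. It was listed at 2, 12 and 7 reads in the control libraries and 3, 2 and 7 in the knockdown libraries. Its mean over the 6 libraries was 0.575 CPM, while that of its neighbour in function HSPA5 was 957 CPM. HSPA5 rose from 735 to 1185 CPM (log2 fold change 0.69, adjusted p = 8.28e-06, edgeR). It is 1 of the 5 tested genes of the ATF6 and XBP1 arms that rose, against 3 that fell. Of the annotated exon bases of HSP90B1, 7.60% are shared with C12orf73, MIR3652 and TTC41P. Whether the counting lost reads of HSP90B1 was not tested.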
